A study of Mus musculus with 2 samples.

Results

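The genes described here are 9 mouse genes grouped under the synthesis, binding and clearance of retinoic acid. They were chosen by symbol from the 31252 gene rows of the RNAseq count matrix, and all 9 were found. They are Aldh1a1, Aldh1a2, Aldh1a3 and Aldh1a7, which encode aldehyde dehydrogenases, Rbp4 and Stra6, which serve the carriage and uptake of retinol, Crabp1 and Crabp2, which bind retinoic acid in the cell, and Cyp26b1, which clears it. RNA came from the ventral midbrain of mice 2 months old, in 1 library labelled Ctrl and 1 library labelled OE. By the series' design, Ctrl mice carried Slc6a3-Cre, and OE mice carried Slc6a3-Cre together with CAG-S-COUP-TFII, an allele that expresses COUP-TFII once Cre has acted on it. The Cre sits in the gene of the dopamine transporter and so acts in dopaminergic (DA) neurons, while the RNA came from the whole tissue block, although the labels name DA neurons as the cell type. The strain of both was Incipient congenic C57BL/6. In the matings given in the study's methods, the littermates also carried a floxed Tfam copy and a tdTomato reporter, and it is not stated whether this held for the mice sequenced, nor how many mice went into a library.

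Retinoic acid is made from vitamin A in a pair of oxidation steps. Retinol travels in blood bound to the carrier encoded by Rbp4 and enters some cells through the receptor encoded by Stra6. Dehydrogenases turn retinol into retinal, and enzymes of the ALDH1A family turn retinal into retinoic acid, which nuclear receptors of the RAR and RXR families read. Whether the enzyme of Aldh1a7 makes retinoic acid was not measured here. Enzymes of the CYP26 family oxidize retinoic acid and so limit where it acts. In the adult midbrain Aldh1a1 marks a ventral group of DA neurons of the substantia nigra, where its enzyme also handles the reactive aldehyde formed from dopamine, and COUP-TFII is itself an orphan nuclear receptor.

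Aldh1a1 and Aldh1a7 are neighbours on chromosome 19 and near copies of each other, so their sequences are shown first, since they bear on how reads could be assigned. On GRCm38, the assembly that mm10 names, Aldh1a1 lies at chr19:20492715-20643465 on the plus strand and Aldh1a7 at chr19:20692953-20727562 on the minus strand, each with 13 exons in the transcript used (GENCODE M21). Their coding sequences have 1506 bases each and align without a gap, with 1380 identical bases (91.6%) and 126 that differ. The other pairs among the 4 Aldh1a genes were between 68.7% and 69.9% identical. The longest stretch that Aldh1a1 and Aldh1a7 share runs over coding positions 757 to 856, counted from the first base of the start codon. A read of 50 bases from within it, taken alone, could have come from either gene. Fragments were read from both ends, so the other read of a pair could still tell the genes apart. Pairs were not compared, and the windows below are not a share of ambiguous fragments.
Aldh1a1 and Aldh1a7, coding positions 757 to 856: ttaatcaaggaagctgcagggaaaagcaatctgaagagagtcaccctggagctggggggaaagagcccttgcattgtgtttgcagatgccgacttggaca
The stretch of 60 bases in which they differ most, coding positions 317 to 376, has 16 differing bases, given here in capitals.
Aldh1a1, coding positions 317 to 376: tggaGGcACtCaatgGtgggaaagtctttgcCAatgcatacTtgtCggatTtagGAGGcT
Aldh1a7, coding positions 317 to 376: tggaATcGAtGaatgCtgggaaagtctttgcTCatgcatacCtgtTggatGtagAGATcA
Of the 1457 windows of 50 bases along the coding sequence, 151 (10.4%) were identical between both genes, the median window had 3 differences, and the highest number was 14. No other member shared a window of 50 bases with any other gene, and none of the 9 had an exon overlapped by an exon of another gene.

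**Figure D1:**
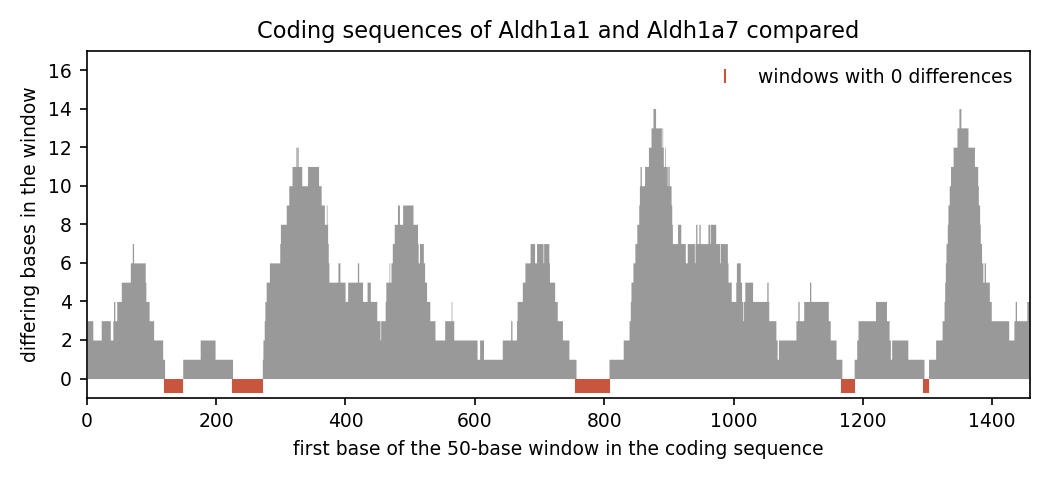
Number of bases (vertical axis) that differ between Aldh1a1 and Aldh1a7 in each window of 50 bases, by the position of the window along the coding sequence in bases (horizontal axis). Of the 1457 windows, 151 have 0 differences, and the highest number is 14.

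The 250 bases before the start site are shown for these neighbours and for Cyp26b1 (RefSeq, GRCm38.p6). These genes are the members that differed most between the libraries, together with the most abundant one. The RefSeq start sites lay 7, 6 and 64 bases from the start of the transcript used for Aldh1a1, Aldh1a7 and Cyp26b1. Aldh1a1 had another entry, 109378 bases from that start, which is not shown. Capitals mark the motifs searched on both strands, which were AGGTCA, the half-site bound by COUP-TFs and retinoid receptors, TATAAA and CCAAT.
Aldh1a1, chr19:20601718-20601967, plus strand: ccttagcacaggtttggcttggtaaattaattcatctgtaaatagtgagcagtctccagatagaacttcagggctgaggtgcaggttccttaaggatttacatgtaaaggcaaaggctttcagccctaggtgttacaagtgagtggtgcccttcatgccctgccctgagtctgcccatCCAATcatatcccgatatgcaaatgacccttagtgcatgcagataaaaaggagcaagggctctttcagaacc
Aldh1a7, chr19:20727557-20727806, minus strand: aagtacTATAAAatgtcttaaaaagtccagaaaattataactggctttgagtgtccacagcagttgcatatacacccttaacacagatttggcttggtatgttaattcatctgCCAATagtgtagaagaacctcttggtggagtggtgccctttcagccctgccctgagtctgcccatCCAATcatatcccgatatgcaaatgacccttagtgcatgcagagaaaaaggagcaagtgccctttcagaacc
Cyp26b1, chr6:84593811-84594060, minus strand: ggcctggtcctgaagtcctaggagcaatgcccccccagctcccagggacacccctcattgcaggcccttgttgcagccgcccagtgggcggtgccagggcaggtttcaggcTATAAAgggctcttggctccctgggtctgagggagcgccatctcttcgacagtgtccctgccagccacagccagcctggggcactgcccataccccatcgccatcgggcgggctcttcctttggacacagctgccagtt
The neighbours are also alike here, with 94 of the last 100 bases before the start identical, and both hold a CCAAT that begins 72 bases before it. Promoter entries were found for 7 members, 12 entries in all, and not for Aldh1a3 and Crabp2. None of the 12 held AGGTCA, which was in 14.0% of all 32851 promoters of this length. TATAAA, in 12.4% of all promoters, was found in Aldh1a7, Cyp26b1 and Rbp4, and CCAAT, in 33.8%, in Aldh1a1, Aldh1a2, Aldh1a7, Rbp4 and Stra6. These matches describe letters in a window and not sites that were seen to be bound.

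Nr2f2, the gene of COUP-TFII, was read as a check of the labels, and its direction went against them. With 637 counts in the library labelled Ctrl against 377 in the one labelled OE, it was 1.07 units down on the log2 scale (-1.07, with a counting interval of -1.26 to -0.88). The allele acts in DA neurons while these counts came from the whole tissue block, and the share of other cells in them was not tested. With 1 library a group, the counts of this gene alone cannot decide whether the labels are exchanged. Fold changes are given with the library labelled OE as numerator, and all directions below follow the labels and carry this doubt. In total, 16984336 counts were assigned to genes for Ctrl by the labels and 21326632 for OE. With 1 library a group, no difference has a replicate check and no test was made. The 95% intervals are exact, Poisson for a level and Clopper-Pearson for a share or for the split of a gene's counts behind a fold change. They take in counting error alone, so that they speak of these libraries and not of the genotypes. Levels are given as CPM, the counts per 1000000 counts of a library after TMM scaling, and fold changes were taken after adding 0.5 normalized counts.

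A gene is called tested where its counts averaged at least 10 over the libraries, which 7 of the 9 members reached. By more than log2 0.2, the threshold of the study's methods, 5 of the 7 were higher in the library labelled OE (Aldh1a1, Aldh1a7, Rbp4, Stra6 and Cyp26b1) and 1 was lower (Crabp2), where 17.9% of the 15246 genes tested were higher and 16.6% lower. With an interval that also excluded 0, 4 members were higher (Aldh1a1, Aldh1a7, Rbp4 and Cyp26b1) and 0 lower, beside 9.9% and 9.16% of all genes tested. Past log2 1, 2 were higher (Aldh1a7 and Cyp26b1) and 0 lower, beside 1.53% and 1.28%. Aldh1a3 and Crabp1 stayed under the minimum of 10 counts in both libraries. The median of all genes tested was 0.0046 on the log2 scale, and that of the 7 tested members, chosen with earlier results known, was 0.83.

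**Figure D2:**
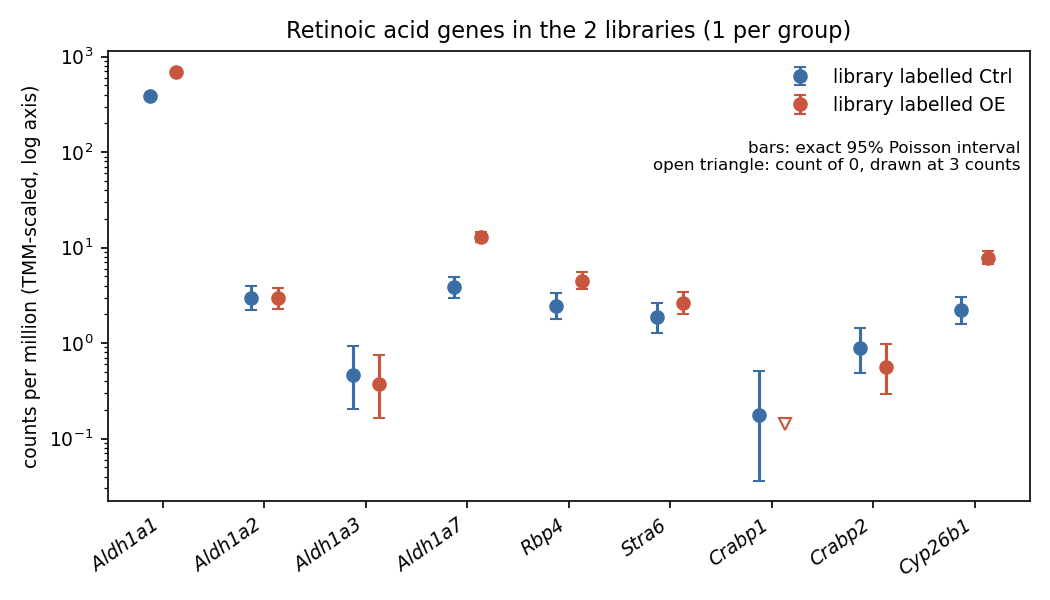
Level of each of the 9 genes in CPM (log axis) in the library labelled Ctrl and the library labelled OE, with bars for the 95% counting interval of each level and an open triangle at 3 counts for the count of 0 of Crabp1. Aldh1a1 stands far above the others in both libraries, and the intervals of Aldh1a1, Aldh1a7, Rbp4 and Cyp26b1 do not overlap between the libraries.

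Aldh1a1, the ALDH1A enzyme of nigral DA neurons, had 6649 counts in the library labelled Ctrl against 14705 in the one labelled OE. These were levels of 389 CPM (interval 380 to 399) and 693 CPM (682 to 704), so the library labelled OE was higher and the intervals did not overlap. The log2 fold change was 0.83 (0.79 to 0.87), a ratio of 1.78, which placed Aldh1a1 at rank 357 from the highest of 15246 genes by the labels, or from the lowest with the labels exchanged. With the most counts, Aldh1a1 had the narrowest interval of the members. The study reported lower expression of several aldehyde dehydrogenase genes in the ventral midbrain of OE mice, and the words of its results do not name them. Its list of primers holds mouse Aldh1a1 and Aldh1a7. The study also reported lower expression of several such genes in a rat DA cell line that overexpressed COUP-TFII. In the striatum of OE mice it found more of the reactive aldehyde relative to dopamine. By the labels, Aldh1a1 and Aldh1a7 were higher here, and with the labels exchanged both would be lower. Whether they are among the genes that the study found lower was not checked.

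Aldh1a7, a rodent gene whose enzyme resembles that of Aldh1a1, had 66.2 counts in the library labelled Ctrl against 272 in the one labelled OE. Its level was 3.88 CPM (2.99 to 4.92) in the former and 12.8 CPM (11.3 to 14.4) in the latter, again higher in the library labelled OE without overlap. The log2 fold change was 1.72 (1.34 to 2.14), a ratio of 3.30, at rank 64 from that same end. Aldh1a7 therefore differed more between the libraries than Aldh1a1, and the ratio of their counts within a library, which no scaling moves, went from 0.00995 to 0.0185, a log2 change of 0.90 (0.51 to 1.29). Intervals of such ratios use the normal approximation on the log scale and also cover counting error only.

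The program that made the counts, RSEM, shares reads between transcripts they match equally well. Aldh1a1 and Aldh1a7 were the only members with counts that were not whole within 0.005, while 95.4% of all values were whole. Their sum was whole in both libraries, 6715 in the library labelled Ctrl against 14977 in the one labelled OE. The summed log2 fold change was 0.84 (0.80 to 0.89). Aldh1a7 took 0.986% (0.761 to 1.25) of the pair's counts in the library labelled Ctrl against 1.81% (1.61 to 2.04) in the one labelled OE. How far the values of Aldh1a7 came from shared reads was not tested, since only counts per gene were used, and its level and fold change are uncertain for that reason.

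Aldh1a2, whose enzyme is the main maker of retinoic acid in the embryo and in the meninges, had 51 counts in the library labelled Ctrl against 63 in the one labelled OE. Its levels of 2.99 CPM (2.22 to 3.93) and 2.97 CPM (2.28 to 3.80) overlapped almost entirely. The log2 fold change of -0.0083 (-0.56 to 0.55) had a sign that turned with the scaling, between -0.023 and 0.0052, so no direction is given, and at this depth a difference within that interval was not detectable. Aldh1a3, an enzyme of the developing eye and nose, had 8 counts in each library, or 0.469 CPM (0.202 to 0.923) and 0.377 CPM (0.163 to 0.743), with a log2 interval from -1.93 to 1.30. Aldh1a1 made up 98.2% (97.8 to 98.5) of the 6774 counts of the 4 Aldh1a genes in the library labelled Ctrl and 97.7% (97.5 to 98.0) of 15048 in the library labelled OE.

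Among the genes of retinol transport, Rbp4 had 42 counts in the library labelled Ctrl against 96 in the one labelled OE. Its levels were 2.46 CPM (1.77 to 3.32) and 4.53 CPM (3.67 to 5.53), higher in the library labelled OE without overlap. The log2 fold change was 0.87 (0.34 to 1.44), close in size to that of Aldh1a1 but with a far wider interval. Stra6, whose product takes up retinol from its carrier, had 32 and 56 counts. Its levels of 1.87 CPM (1.28 to 2.65) and 2.64 CPM (1.99 to 3.43) overlapped, and the log2 fold change of 0.49 (-0.16 to 1.17) was past the threshold of log2 0.2 without excluding 0.

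Both cellular binding proteins were near the limit of detection. Crabp2, whose product carries retinoic acid to its receptors, had 15 counts in the library labelled Ctrl against 12 in the one labelled OE, levels of 0.879 CPM (0.492 to 1.45) and 0.566 CPM (0.292 to 0.988). These overlapped, and the log2 fold change was -0.61 (-1.86 to 0.56). Crabp1 had 3 counts in the library labelled Ctrl, or 0.176 CPM (0.0362 to 0.513), and 0 in the library labelled OE, where 3 counts would have been 0.141 CPM. No fold is given for it, and no difference was detectable at this depth.

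Cyp26b1, the CYP26 enzyme that clears retinoic acid in the brain, had 38 counts in the library labelled Ctrl against 167 in the one labelled OE. Its levels were 2.23 CPM (1.57 to 3.05) and 7.87 CPM (6.72 to 9.16), higher in the library labelled OE without overlap. The log2 fold change of 1.81 (1.31 to 2.37), a ratio of 3.54, was the highest by the labels of the 8 members given one and stood at rank 58 from the highest of 15246 genes, which would be rank 58 from the lowest with the labels exchanged. Within the libraries, the ratio of Cyp26b1 to Aldh1a1 counts went from 0.00572 to 0.0114, a log2 change of 0.99 (0.48 to 1.50), and that of Cyp26b1 to Aldh1a2 from 0.745 to 2.65, a log2 change of 1.83 (1.09 to 2.57). The related genes Cyp26a1, with 3 and 1 counts, and Cyp26c1, with 0 and 0, were too low to compare. They are named here because they complete the family of clearing enzymes and were picked out after their values were seen.

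**Figure D3:**
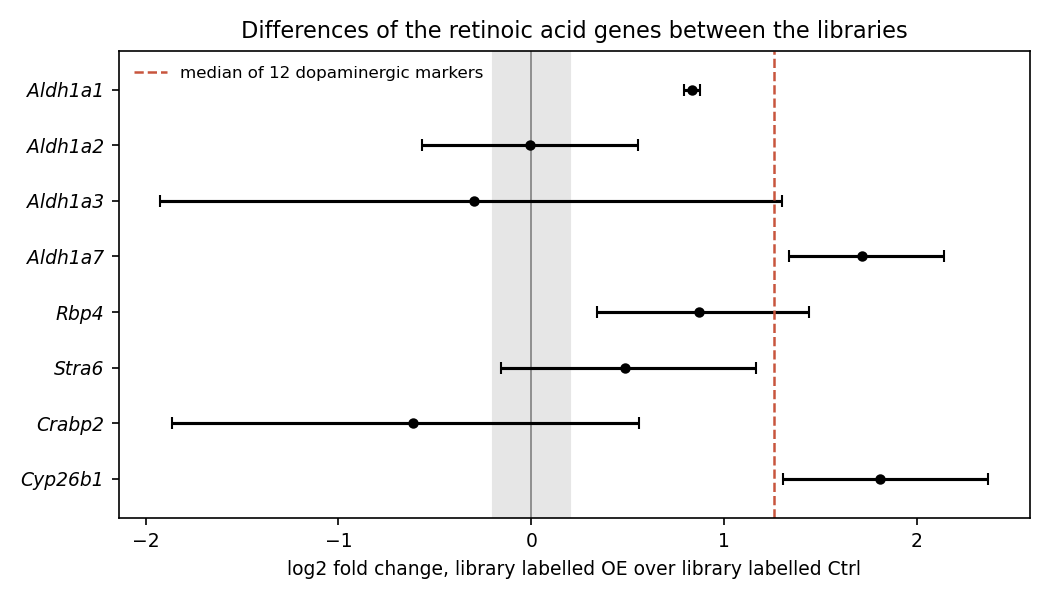
Log2 fold change (horizontal axis, library labelled OE over library labelled Ctrl) of 8 of the 9 genes, with 95% counting intervals. Crabp1 is left out because both its counts were at or under 3. The grey band marks log2 0.2 in either direction and the dashed line the median of 12 dopaminergic markers, 1.26. Aldh1a7 and Cyp26b1 lie right of that line with their intervals, Aldh1a1 lies left of it.

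Levels can be set against each other only per length, here as CPM per kilobase of transcript. Aldh1a1 led with 190 CPM per kilobase in the library labelled Ctrl against 338 in the one labelled OE, apart from every other member. In the library labelled Ctrl, Rbp4 (2.12), Aldh1a7 (1.88), Aldh1a2 (1.32), Crabp2 (0.944), Stra6 (0.626), Cyp26b1 (0.535), Crabp1 (0.219) and Aldh1a3 (0.136) followed, and the counting intervals of each neighbouring pair in this order overlapped. In the library labelled OE the order was Aldh1a7 (6.20), Rbp4 (3.90), Cyp26b1 (1.89), Aldh1a2 (1.31), Stra6 (0.882), Crabp2 (0.608), Aldh1a3 (0.110) and Crabp1 (0). There, Aldh1a7, Rbp4 and Cyp26b1 were apart from their neighbours above and Crabp2 from Aldh1a3 below it, whereas the intervals from Cyp26b1 to Crabp2 overlapped step by step, as did those of Aldh1a3 and Crabp1. Cyp26b1 moved from the seventh place to the fourth between the libraries.

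The tissue is a mixture, and markers of several cell types and regions differed along with the members. Beside the marker counts below stand the shares of all genes tested, 17.9% higher and 16.6% lower past log2 0.2. In bulk tissue, fewer cells of a type and less RNA per cell cannot be told apart. All 12 markers of DA neurons had counts in both libraries and were higher in that labelled OE, by 0.79 to 2.00 on the log2 scale, with a median of 1.26 and a summed level of 1075 CPM in the library labelled Ctrl against 2706 CPM in the one labelled OE. Th, the rate-limiting enzyme of dopamine synthesis, had 2499 and 9354 counts (log2 fold change 1.59), and Slc6a3, the dopamine transporter, 4955 and 15033 (1.29). The part of these markers in the values of Aldh1a1, Aldh1a7, Rbp4 and Cyp26b1 was not tested.

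Measured against the DA markers, Aldh1a1 was lower in the library labelled OE. Of the 12 markers, 11 had a larger log2 fold change than Aldh1a1, which lay 0.43 below their median. The exception was Nr4a2, a transcription factor of DA neurons, at 0.79. The ratio of Aldh1a1 to Th counts went from 2.66 in the library labelled Ctrl to 1.57 in the library labelled OE, a log2 change of -0.76 (-0.84 to -0.68), and the ratio to Slc6a3 from 1.34 to 0.978, a log2 change of -0.46 (-0.52 to -0.39). The log2 change was -0.33 (-0.41 to -0.26) against Ddc, which makes dopamine from L-DOPA, and -0.70 (-0.77 to -0.63) against Slc18a2, the vesicular monoamine transporter. The 4 ratios had the same sign, and the intervals against Th and Slc18a2 lay wholly below those against Slc6a3 and Ddc.

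Aldh1a7 and Cyp26b1 lay on the other side, 0.46 and 0.55 above the median of the DA markers, with a larger log2 fold change than 10 of the 12. Against Th alone, however, the change of the ratio was 0.14 (-0.25 to 0.53) for Aldh1a7 and 0.23 (-0.28 to 0.74) for Cyp26b1, and both intervals held 0. Rbp4 lay 0.39 below the median of the markers, which is inside its own interval (0.34 to 1.44). The ratio of Rbp4 to Th, a marker with one of the larger fold changes, went from 0.0168 to 0.0103, a log2 change of -0.71 (-1.24 to -0.18).

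Markers of the ventral tier of the nigra, where Aldh1a1 is known to be expressed, differed less uniformly. Of 6, 3 were higher past log2 0.2 (Ndnf, Kcnj6 and Anxa1) and 1 lower (Igf1), with a median of 0.27 and a summed level of 134 and 158 CPM. Vcan, the highest of them, had 678 and 906 counts. Ndnf, a secreted factor of these neurons, had 332 and 729 counts, and the ratio of Aldh1a1 to Ndnf was 20.0 and 20.2, a log2 change of 0.010 (-0.18 to 0.20). Against the other 5 the answer varied with the gene. The log2 change of the ratio was -0.059 (-0.30 to 0.19) for Kcnj6, 0.39 (0.050 to 0.73) for Anxa1, 0.73 (0.58 to 0.88) for Vcan, 0.89 (0.71 to 1.06) for Sox6 and 1.15 (0.96 to 1.35) for Igf1. Relative to this list, Aldh1a1 thus had intervals above 0 for 4 of the 6 and intervals that held 0 for 2. The RNA came from the whole tissue block, and which cells gave the counts of these 6 markers was not tested. Of 6 markers of the ventral tegmental area, 2 were higher (Lpl and Neurod6) and 1 was lower, with a median of -0.010 and summed levels of 493 and 448 CPM. The lower one, Slc17a6, a glutamate transporter, was also the highest of this list, with 6340 and 6727 counts.

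Markers of other regions and cells were mostly lower in the library labelled OE. Of 10 thalamus markers, 9 were lower past log2 0.2 and 0 higher, with a median of -1.48 and a summed level of 1082 and 667 CPM, and the remaining one was Calb2. Gbx2, a thalamic transcription factor, had 29.9 counts in the library labelled Ctrl against 0 in the one labelled OE, at least 12.4-fold lower when 3 counts are taken as the floor in that library. Slc17a6 was also the highest gene of this list. Of 11 meningeal fibroblast markers tested, out of 12, 10 were lower and 0 higher, with a median of -0.60 and summed levels of 123 and 86.5 CPM, and Igf2, the highest of them, had 722 and 656 counts. Aldh1a2, known from the meninges, had levels of 2.99 and 2.97 CPM beside these.

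Of 6 choroid plexus markers tested, out of 10, 1 was higher and 2 were lower. Their median of 0.0041 turned sign with total counts (-0.011) and was -1.56 with a minimum of 100 counts, so no direction is given for the list. The higher one was Clic6 and the lower ones Kl and Ttr. Their summed level was 50.5 CPM in the library labelled Ctrl against 26.4 CPM in the one labelled OE, of which Ttr gave 24.9 and 3.16 CPM. The product of Ttr, transthyretin, carries the protein of Rbp4 in blood, and its counts of 426 and 67 gave a log2 fold change of -2.97. The ratio of Rbp4 to Ttr counts went from 0.0986 to 1.43, a log2 change of 3.86 (3.22 to 4.50), so the RNAs of Rbp4 and Ttr differed in opposite directions. Their proteins were not measured.

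Glial and vascular markers had medians nearer to 0 than those of the thalamus and meninges. Of 10 astrocyte markers 1 (Aqp4) was lower and 0 higher (median -0.065, summed level 4591 and 4299 CPM), of 10 oligodendrocyte markers 7 were lower and 0 higher (median -0.29, 20778 and 17395 CPM), and of 8 endothelial markers 4 (Cldn5, Pecam1, Slco1a4 and Emcn) were lower and 0 higher (median -0.18, 305 and 275 CPM). The highest genes of these lists were Slc1a2 for astrocytes, Mbp for oligodendrocytes, and Slco1a4 and Flt1 for the endothelium. The ratio of Aldh1a1 to Slc1a2, the glutamate transporter of astrocytes, had a log2 change of 1.01 (0.96 to 1.05), and the ratio to Aldh1l1, an astrocyte enzyme, went from 4.86 to 9.24, a log2 change of 0.93 (0.82 to 1.04). Among the markers, those that are neither Th, Slc6a3 nor the highest of their list are named after their values were seen. The part of these markers in the members' values was not tested.

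**Figure D4:**
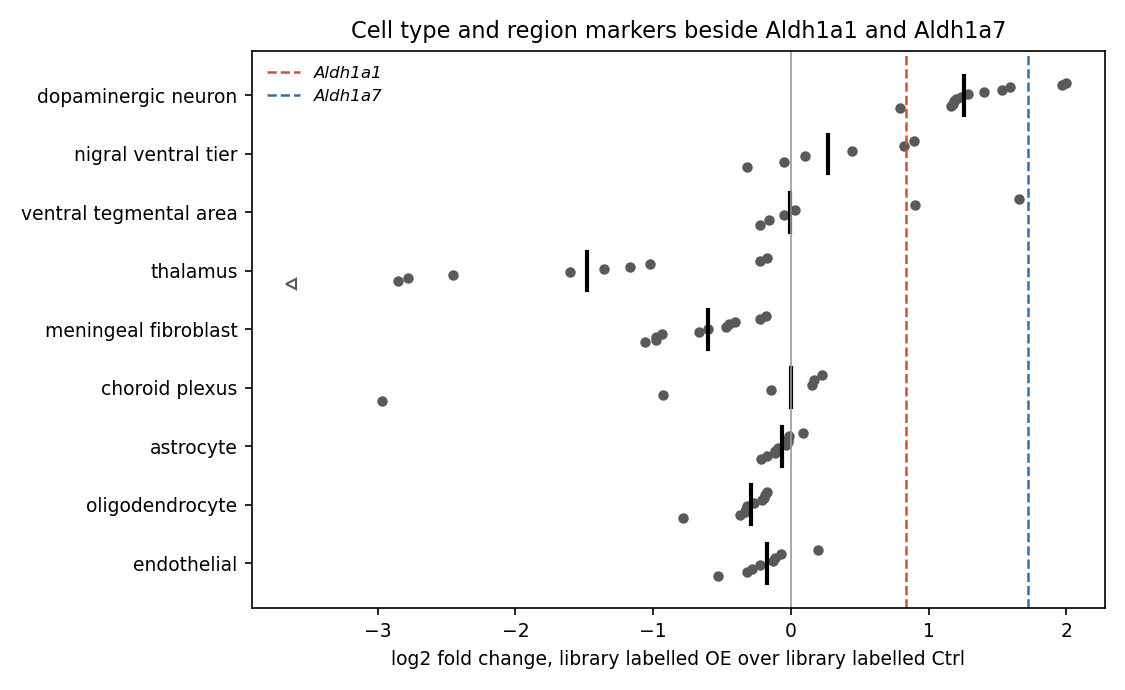
Log2 fold change (horizontal axis, library labelled OE over library labelled Ctrl) of each tested marker gene (points) in 9 lists of cell type or region markers, with the median of each list as a black bar. The open triangle is Gbx2 at its bound, and dashed lines mark Aldh1a1 and Aldh1a7. The 12 DA markers are all above 0, and 9 of 10 thalamus markers are lower past log2 0.2.

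Among 32 other genes of retinoid metabolism, 17 were tested, 15 had fewer counts, and 5 had no count in either library. Of the 17, 1 (5.88%) was higher past log2 0.2 and 6 (35.3%) were lower, beside 17.9% and 16.6% of all genes, and their median was -0.072. The higher one was Rbp3, a retinoid-binding protein of the eye, with 6 and 22 counts (log2 fold change 1.49, 0.21 to 3.15).

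Besides Ttr, 3 of the lower genes had intervals below 0, and the other two, Rdh9 and Bco2, had intervals that held 0. Dhrs3, which turns retinal back into retinol, had 248 and 252 counts (-0.29, -0.55 to -0.031). Scarb1, a lipoprotein receptor that also takes up carotenoids, had 299 and 307 (-0.27, -0.51 to -0.041). Rlbp1, which binds retinal, had 183 and 181 (-0.33, -0.63 to -0.025). Their counts were near equal, while the library labelled OE held more counts in all. Rdh10, the main retinol dehydrogenase of the embryo, named after its values were seen, had 128 and 152 counts (-0.065, -0.41 to 0.29).

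The receptors that read retinoic acid were all detected. Past log2 0.2, 2 of the 6 (33.3%) were higher and 0 lower, beside 17.9% and 16.6% of all genes tested. No interval excluded 0 among the receptors. Rara had 74 and 116 counts (0.33, -0.098 to 0.78), and Rxrg 84 and 125 (0.26, -0.15 to 0.68). Rarb (169 and 209 counts), Rarg (101 and 125), Rxra (794 and 980) and Rxrb (699 and 841) had log2 fold changes between -0.046 and -0.0056. The summed level of the 6 receptors was 113 CPM in both libraries.

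Of 12 genes known to be induced by retinoic acid in other tissues, 7 were tested. Past log2 0.2, 1 (14.3%) was higher and 2 (28.6%) were lower, beside 17.9% and 16.6% of all genes tested. Rarb and Dhrs3 are also in the lists above, so the lists are not separate. The median of the 7, -0.0067, is the value of Rarb and changed sign with the scaling, between -0.022 and 0.0069. The higher gene was Zfp703, a zinc finger gene with 175 and 322 counts (0.57, 0.30 to 0.84). The lower genes were Dhrs3 and Tgm2, a transglutaminase with 335 and 300 counts (-0.47, -0.70 to -0.24). These counts do not read the amount of retinoic acid in the tissue, which was not measured.

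**Figure D5:**
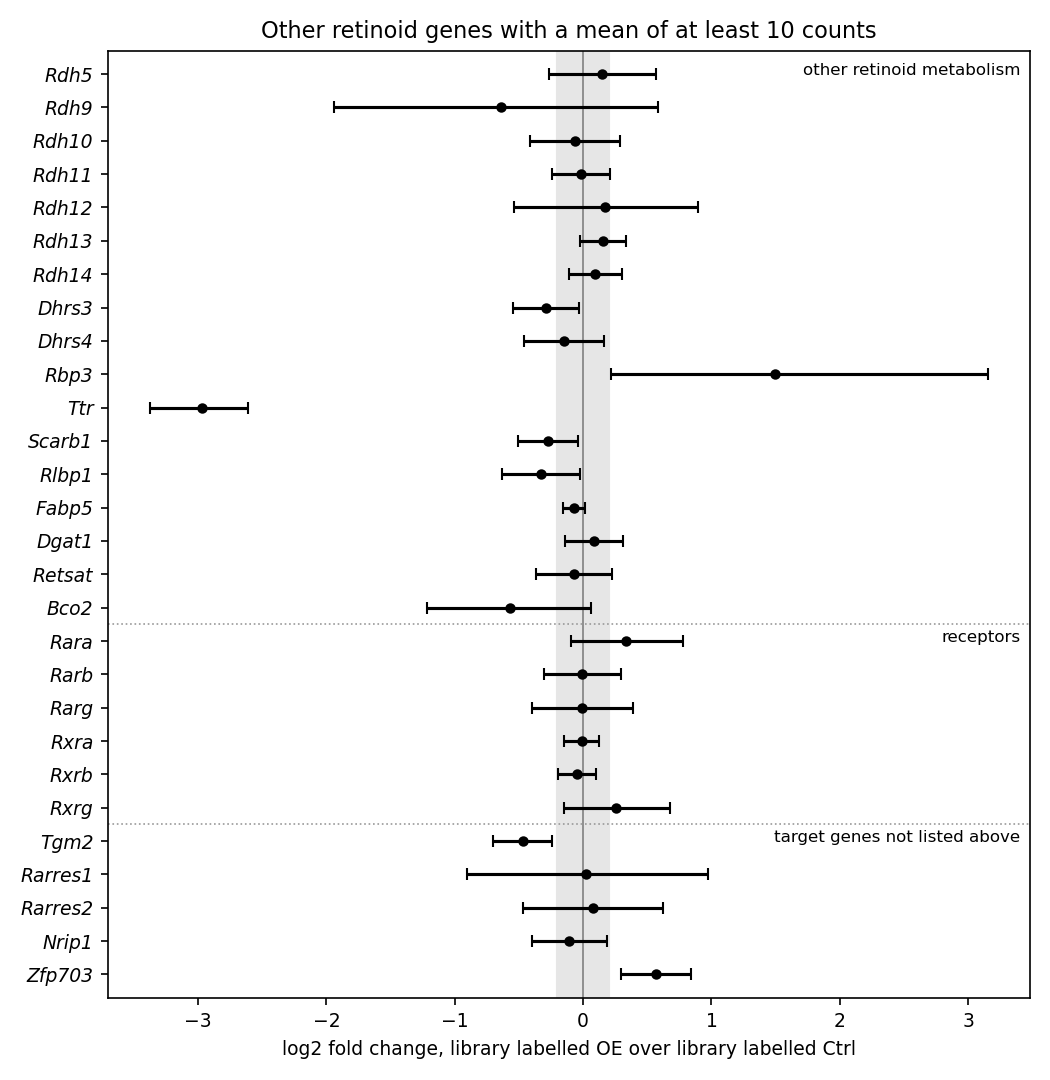
Log2 fold change (horizontal axis, library labelled OE over library labelled Ctrl) of the tested retinoid genes outside the 9, with 95% counting intervals and a grey band at log2 0.2 in either direction. Rbp3 is highest at 1.49 with a wide interval, Ttr is lowest at -2.97, and the 6 receptors lie between -0.046 and 0.33.

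The remaining members lie on several chromosomes (GRCm38, GENCODE M21), and all their counts are estimates per gene by RSEM. Aldh1a2 lies at chr9:71215789-71296243 and Aldh1a3 at chr7:66390890-66427517, with transcripts of 2264 and 3443 bases. Rbp4 lies at chr19:38116629-38125281 and Stra6 at chr9:58063788-58153996. Crabp1 lies at chr9:54764748-54773110, Crabp2 at chr3:87948666-87953376 and Cyp26b1 at chr6:84571414-84593908. The transcripts of Rbp4 (1161 bases), Crabp1 (802) and Crabp2 (931) are short beside that of Cyp26b1 (4157), so an equal count stands for a higher level per length in them.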

How the data were processed

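RNA from 2 libraries of mouse ventral midbrain, 1 labelled Ctrl and 1 labelled OE, was prepared with a stranded kit for polyadenylated RNA and read from both ends over 50 bases. The authors deposited expected counts per gene, estimated by RSEM in the sequencing company's pipeline and not scaled. The build is mm10 per the submitters' processing notes. The aligner, the RSEM version, the annotation and the strand setting are not given in the sources used here.

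Counts were scaled with the TMM method of edgeR 4.0.16 (R 4.3.3). Fold changes were log2 ratios after adding 0.5 normalized counts, and a gene was tested against the thresholds where its counts averaged 10 or more. Counts were rounded for the Clopper-Pearson intervals (scipy 1.17.1), which at 95% cover counting error only. Intervals of count ratios used the normal approximation on the log scale. A count of 0 allowed up to 3 counts. Coding sequences came from GENCODE M21 (aligned with Biopython 1.88) and promoters from RefSeq, matched by symbol. Lengths were those of the transcript with the longest coding sequence.

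The alternatives were total counts, the upper quartile or DESeq2 1.42.0 size factors, a pseudocount of 5, no minimum or 100 counts, and other thresholds. Steps were tested on simulated data. The members and lists were chosen with earlier results of these data known. The genes named were all members, Nr2f2, the retinoid list genes past log2 0.2 whose interval excluded 0, the receptors, and of the marker lists Th, Slc6a3 and the highest gene of each. Others are named where the text says so, or as reference genes of a ratio. A gene of the retinoid lists is not reported here.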

Additional observations from a re-analysis of the deposited data

How the results depend on the processing

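No paired analysis was possible because the labels give 1 library for Ctrl and 1 for OE, and for the same reason no library could be left out. In all, 143 values were recomputed, most of them counts of genes or medians of lists. Members whose interval excluded 0 kept their sign. For them only the scaling and the pseudocount were varied, which move a log2 value by little beside its size, so this is weak support. The sign of 5 results near 0 turned: Aldh1a2 and the medians of the receptors, the induced genes and the ventral tegmental markers with upper quartile scaling (0.0052, 0.0074, 0.0069 and 0.0037), and the choroid plexus median with total counts (-0.011), a pseudocount of 5 (-0.012) or a minimum of 100 counts. With no count minimum, 5 of 9 members were higher and 3 lower past log2 0.2, beside 4513 (23.5%) and 4497 (23.4%) of 19212 genes, and the 3 include Aldh1a3 and Crabp1, which are too low to show a difference. With a minimum of 100 counts, 3 members were left, of which 3 were higher and 0 lower, beside 1522 (13.0%) and 1377 (11.7%) of 11735 genes. Requiring an interval that excluded 0 left 0 members lower, with 1509 and 1396 of all genes. At log2 1, 2 members were higher and 0 lower, with 233 and 195 of all genes. With no minimum the medians moved to -0.21 for other retinoid metabolism and -0.19 for the induced genes. At 100 counts they were -1.36 for thalamus, -0.45 for meningeal and -1.56 for choroid plexus markers. Against Th alone, Aldh1a1 lay 0.76 lower (-0.76). These changes follow from which genes were counted or set as the reference. Across scalings and pseudocounts the log2 fold change ranged from 0.82 to 0.85 for Aldh1a1, 1.66 to 1.73 for Aldh1a7, 0.81 to 0.89 for Rbp4, 0.44 to 0.50 for Stra6 and 1.71 to 1.82 for Cyp26b1. Crabp2 (15 and 12 counts), Crabp1 and Aldh1a3 are limited by depth.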
